A study of Mus musculus with 2 samples.

Results

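Interferon-response phagocytes in injured mouse muscle were examined in 2 single-cell RNA libraries taken 7 days after peroneal nerve crush. Member cells were chosen by the measured UMIs (unique molecular identifiers, each standing for 1 captured mRNA): more than 200 genes, less than 10% mitochondrial UMIs, at least 2 of the 4 phagocyte genes Csf1r, Cd68, Lyz2 and Ly6c2, and a UMI for at least 4 of the 6 interferon-stimulated genes Ifit2, Ifit3, Isg15, Rsad2, Slfn4 and Ms4a4c (the rule genes). Barcodes with a UMI for the dendritic cell genes Cd209a, Xcr1 or Siglech, or with 3 or more of the neutrophil genes S100a8, S100a9, Retnlg and Cxcr2, were left out. In all, 3729 cells qualified, 2136 of 23385 barcodes past the gene and mitochondrial filters in the IgG library and 1593 of 24758 in the SPP1-nAb library. Because the 6 rule genes chose the cells, as did the phagocyte, dendritic cell and neutrophil genes named here, their own levels below are a description and were not tested.

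The study asked how SPP1 (osteopontin), a secreted protein that binds CD44 and integrins, acts on terminal Schwann cells and reinnervation. It implicates myelin Schwann cells as the main source without overt nerve injury and phagocytic cells as a further source after it. Male mice, 10 to 16 weeks old, had bilateral peroneal nerve injury, and 2 μg of antibody in 10 μL was injected into the tibialis anterior muscle and again every 2 days. The IgG group received goat anti-mouse IgG and the SPP1-nAb group received the SPP1 neutralizing antibody. Muscles were digested, live cells were sorted by GFP and propidium iodide, and each condition was sequenced as 1 library, pooling a number of mice that is not given in the sources used here. The labels name the strain C57BL/6J, whereas the methods name S100GFP-tg mice, in which an S100B promoter drives GFP. The sample titles call both libraries S100GFP-pos, whereas the protocol lists GFP+ and GFP- cells, and the study took these cells from tibialis anterior muscle, although the digestion protocol also names gastrocnemius. A Gfp UMI was present in 48.6% of IgG and 56.8% of SPP1-nAb member cells, against 17.0% and 21.97% of mesenchymal barcodes (Pdgfra and Dcn, no Ptprc). At 2000 UMIs per cell the members' Gfp shares were 29.1% and 31.3% against 8.29% and 8.55%. With all UMIs counted, S100b was detected in 0.421% and 0.565% of members.

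The IgG library held 97607674 UMIs in 23779 barcodes and the SPP1-nAb library 127719916 UMIs in 25069 barcodes. Member cells had a median of 4857 UMIs in IgG and 5747 in SPP1-nAb, with ranges of 977 to 20505 and 1006 to 28798. Levels are given as counts scaled to the UMI total of the same cells (CPM). With 1 library per condition no test was possible, and the 95% intervals (exact Clopper-Pearson for shares, exact Poisson for levels, exact binomial for ratios) cover counting error only. A difference between the libraries therefore cannot be told apart from differences between mice, injections, digestion, sorting or sequencing. The libraries shared 163 barcode sequences, 10 of them IgG members and 16 SPP1-nAb members, and no barcode was a member in both.

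Type I interferons, interferon β and the interferon α family, act through the receptor chains Ifnar1 and Ifnar2 and the kinases Jak1 and Tyk2. The resulting complex of signal transducers with Irf9 binds the interferon-stimulated response element (ISRE) in promoters and raises many genes that block viral replication, while interferon γ acts mainly at GAS sites. Ly6C-high monocytes entering injured tissue are known to carry such a program and to mature there into macrophages.

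Member cells were a larger share of the IgG library than of the SPP1-nAb library. Of the barcodes past the gene and mitochondrial filters, they made up 9.13% in IgG (8.77 to 9.51) and 6.43% in SPP1-nAb (6.13 to 6.75). Among cells that passed every other part of the rule, the members' share was 17.6% (16.9 to 18.3) with IgG, of 12123 cells, and 9.94% (9.48 to 10.4) with SPP1-nAb, of 16022 cells. The IgG share was the higher one by either denominator and the intervals did not overlap. Since detection of 4 genes depends on depth, every barcode was also thinned to 2000 UMIs, which left out 4275 IgG and 3715 SPP1-nAb barcodes. At that depth the members' share of cells past the other parts was 11.6% (11.01 to 12.3) with IgG against 4.53% (4.18 to 4.90) with SPP1-nAb. Of the barcodes past the gene and mitochondrial filters that were kept at that depth, members were 6.13% and 2.79%. The deeper library thus had the smaller share, and the gap in ratio was wider at equal depth.

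The number of rule genes detected per member also differed between the libraries, although these values chose the cells and depend on depth. All 6 rule genes were detected in 650 IgG members, 30.4% (28.5 to 32.4), and in 289 SPP1-nAb members, 18.1% (16.3 to 20.1). Exactly 4 were detected in 791 IgG members, 37.0%, and 760 SPP1-nAb members, 47.7%. The cells just below the threshold, with 3 rule genes, numbered 1033 in IgG and 1273 in SPP1-nAb, and those with 2 numbered 1417 and 2406. No gap separated members from other phagocytes: in the plot of cells by the number of rule genes the share fell at each step from 0 to 6 genes in both libraries.

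**Figure D1:**
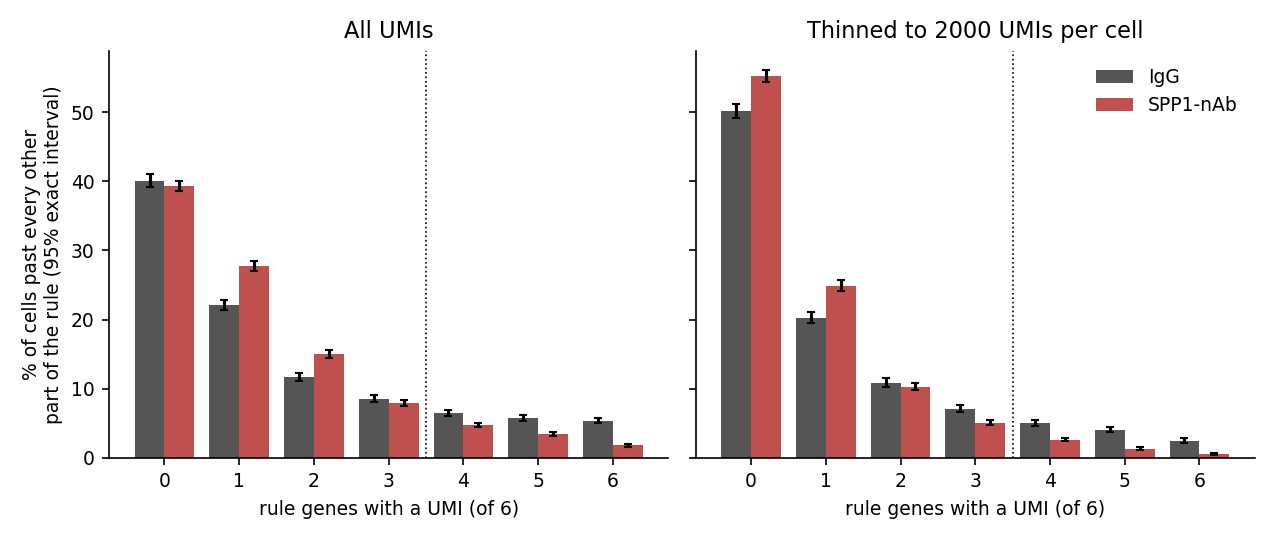
Cells past every other part of the rule, in percent (y axis), by how many of the 6 rule genes had a UMI (x axis), with all UMIs (left) and at 2000 UMIs per cell (right); bars are the 2 libraries, error bars 95% exact intervals, and the dotted line is the threshold for members. At 2000 UMIs, 2.48% of IgG and 0.585% of SPP1-nAb cells had all 6 genes.

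The rule genes cover different steps of the antiviral response. Ifit2 and Ifit3 encode proteins that bind viral RNA and its partners, Isg15 a ubiquitin-like modifier and Rsad2 viperin, an enzyme that makes a chain-terminating nucleotide. Isg15 stood at 2492 CPM (2462 to 2521) with IgG members and 1743 CPM (1718 to 1769) with SPP1-nAb, and Rsad2 at 951 and 807 CPM. Ifit2 stood at 674 and 461 CPM and Ifit3 at 432 and 233 CPM. Reads of Ifit3 may be shared with its near-copy Ifit3b, so the split between them is uncertain. All 4 were lower in the SPP1-nAb library, with Ifit3 furthest apart at a log2 ratio of -0.89 (-0.96 to -0.82) and Rsad2 least at -0.24 (-0.28 to -0.20).

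Slfn4, a Schlafen family gene of myeloid cells, stood at 557 CPM (543 to 571) with IgG and 267 CPM (257 to 277) with SPP1-nAb. Ms4a4c, a membrane protein gene of monocytes, stood at 1100 and 736 CPM. After thinning, Slfn4 was detected in 52.0% of IgG and 33.2% of SPP1-nAb members and Ms4a4c in 78.2% and 67.4%. In mesenchymal barcodes, which should lack both genes, Slfn4 was detected in 0.565% and 0.548% and Ms4a4c in 0.847% and 0.110% at the same 2000 UMIs. Those barcodes had median depths of 5207 and 8081 UMIs before thinning, and without thinning Slfn4 was detected in 71.9% and 56.1% of members against 1.75% and 1.93% of mesenchymal barcodes. As both are rule genes, their detection in members was set in part by the choice of cells. Slfn4 had the widest gap between the libraries of the 6 genes, a log2 ratio of -1.06 (-1.13 to -0.99).

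Promoter sequence (GRCm39, 250 bases before to 50 bases after the start of the canonical transcript in GENCODE M39) was searched on both strands for the ISRE letters GAAANNGAAA. They occur in 812 of 21274 protein-coding promoters (3.82%), in 3 of the 6 rule genes and in 22 of 43 antiviral effector genes outside the rule (51.2%), a list described below. The stretches that hold all matches are shown with 10 bases on each side for the 3 rule genes and for 2 genes outside the rule, Ifit1 and Cxcl10, with the matches in capitals and each read 5′ to 3′ on the gene's own strand. A match to the other strand appears as its reverse complement.
Ifit3 (chr19:34560763-34560826, plus strand): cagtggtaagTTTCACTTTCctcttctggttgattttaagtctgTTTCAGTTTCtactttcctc
Isg15 (chr4:156285322-156285363, minus strand): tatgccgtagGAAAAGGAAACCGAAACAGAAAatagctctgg
Rsad2 (chr12:26506552-26506581, minus strand): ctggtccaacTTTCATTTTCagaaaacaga
Ifit1 (chr19:34618175-34618223, plus strand): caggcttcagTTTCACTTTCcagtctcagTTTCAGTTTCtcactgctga
Cxcl10 (chr5:92496942-92496971, minus strand): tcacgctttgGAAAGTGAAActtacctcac
Isg15 holds 3 overlapping matches, Ifit3 and Ifit1 hold 2 each, and the other two hold 1. The printed stretches begin 136, 60, 130, 96 and 223 bases before the start, in the order given. The letters occur in 0 of 14 classical monocyte promoters and 1 of 17 macrophage promoters. The GAS letters TTCNNNGAA occur in 8.84% of all promoters and in 6 of 13 interferon gamma-type promoters (46.2%). They also occur in 9 of 43 effector promoters (20.9%) and 1 of 6 rule gene promoters. The ISRE letters occur in 5 of the 13 interferon gamma-type promoters (38.5%). The windows of Ifit2 (chr19:34527795-34528094), Slfn4 (chr11:83065762-83066061) and Ms4a4c (chr19:11384767-11385066), all on the plus strand, hold 0 matches to the ISRE letters. A match is a description of letters, not of binding, and its lack says only that these letters are not in the window.

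The label of these cells as monocytes held only in part. Ptprc, the leukocyte surface antigen, was detected in 89.0% of IgG and 91.0% of SPP1-nAb members and Lyz2, lysozyme, in 97.8% and 99.1%, against 22.7% and 43.1% of mesenchymal barcodes for Lyz2. Detection of Lyz2 and Ly6c2 in members is set in part by the rule, which used both. Ly6c2, the marker of classical monocytes, had a UMI in 62.0% of IgG members (59.9 to 64.1) and in 50.8% of SPP1-nAb members (48.3 to 53.3), against 1.17% and 2.68% of mesenchymal barcodes. A UMI for C1qa, C1qb or C1qc, complement genes of macrophages, was present in 75.4% (73.5 to 77.2) and 82.3% (80.3 to 84.1), against 19.2% and 33.5% of mesenchymal barcodes, which should lack them. Mrc1, the mannose receptor of tissue macrophages, was detected in 68.4% and 78.3%, against 7.09% and 11.6% of mesenchymal barcodes. At 2000 UMIs, which left out 42 IgG and 15 SPP1-nAb members, Ly6c2 was detected in 52.0% and 35.5% and a C1q gene in 71.6% and 77.6%, against 8.85% and 12.1% of mesenchymal barcodes for C1q. Only 0.609% and 0.816% of members had 2 or more of the nonclassical monocyte genes Treml4, Adgre4, Ace and Spn.

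These genes set 3 groups. Members with Ly6c2 and no C1q UMI were 19.0% (17.4 to 20.7) in IgG and 12.1% (10.5 to 13.8) in SPP1-nAb, those with both were 43.02% and 38.7%, and those with C1q and no Ly6c2 UMI were 32.4% (30.4 to 34.4) and 43.6% (41.1 to 46.0). At 2000 UMIs the shares were 19.0%, 33.0% and 38.6% in IgG and 11.5%, 24.0% and 53.6% in SPP1-nAb. The remaining 5.57% and 5.65% had neither, or 9.41% and 10.9% at 2000 UMIs. Of the 3 groups, the C1q group without Ly6c2 was thus the one with the higher share in SPP1-nAb, at either depth. The part of free C1q RNA in this division was not tested. Because a C1q UMI was present in most members at either depth, the cells are called member cells here and not monocytes. C1q was not particular to members. At 2000 UMIs C1qb was detected in 66.5% of IgG and 72.7% of SPP1-nAb members. Of all cells past every other part of the rule, members among them, 75.3% and 74.2% had it. The comparison monocytes described below had it in 47.6% and 60.5%. They are named for their Ly6c2 and Ccr2 UMIs and not for a lack of C1q.

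The groups differed in genes that had not set them. Ccr2, the chemokine receptor that brings monocytes into tissue, stood at 878, 719 and 532 CPM with IgG and at 670, 596 and 455 CPM with SPP1-nAb, in the order Ly6c2 only, Ly6c2 and C1q, C1q only. Mrc1 ran the other way, at 496, 834 and 1712 CPM with IgG and at 461, 1179 and 1605 CPM with SPP1-nAb. Adgre1, F4/80 of macrophages, stood at 102, 172 and 338 CPM with IgG and at 109, 219 and 340 CPM with SPP1-nAb. Ccr2 was thus highest in the first group and the macrophage genes in the last, in both libraries.

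The antiviral effectors followed Ccr2 in that order. Their summed level was 24296, 19603 and 16558 CPM across the 3 groups in IgG and 20756, 15816 and 13799 CPM with SPP1-nAb. Irf7, the factor that amplifies interferon production, stood at 957, 753 and 429 CPM with IgG and at 599, 516 and 374 CPM with SPP1-nAb. In each group the SPP1-nAb level was the lower one.

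**Figure D2:**
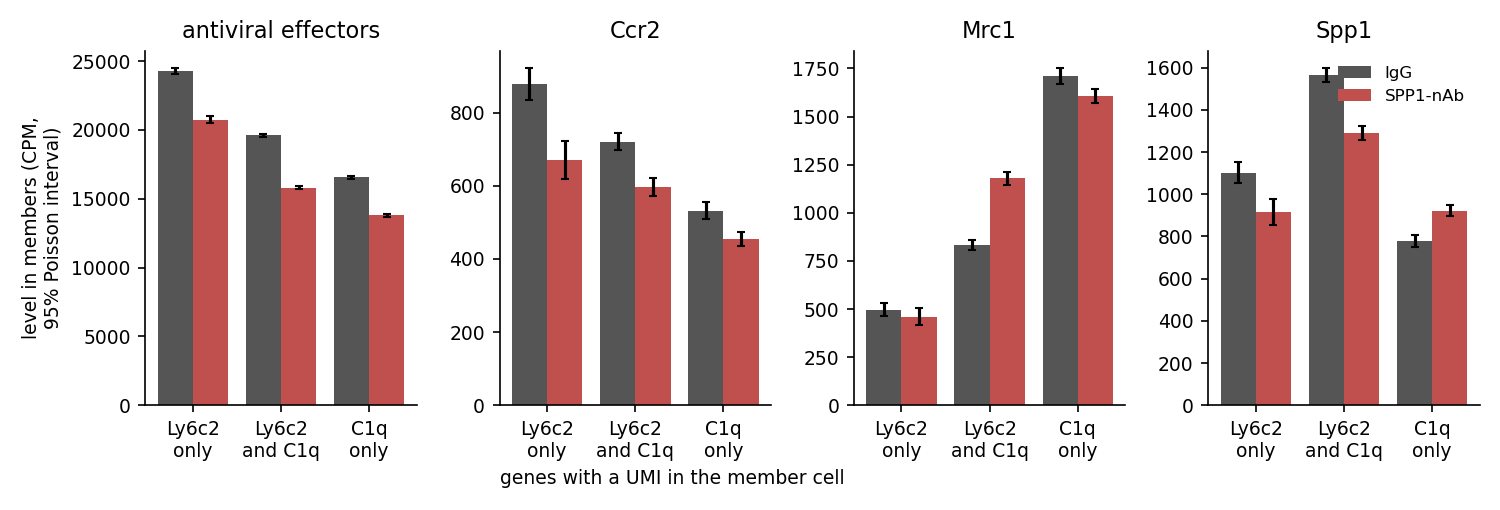
Levels in member cells in CPM (y axes, each from 0) of the summed antiviral effectors, Ccr2, Mrc1 and Spp1, in members with a Ly6c2 UMI only, with Ly6c2 and C1q UMIs, and with a C1q UMI only (x axis); bars are the 2 libraries and error bars 95% Poisson intervals. Effectors and Ccr2 fall from left to right and Mrc1 rises, while Spp1 is highest in the middle group.

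The next question was whether interferon-stimulated genes that the rule did not use rose with it. The list of antiviral effectors outside the rule holds 45 genes, of which 43 were analysed here (Mx1 and Mx2 were not), among them Oas and Ifit genes, tetherin (Bst2), Ifitm3 and guanylate-binding proteins. Their summed level rose with every added rule gene, from 4065 CPM (4037 to 4093) at 0 to 14811 CPM at 4 and 24535 CPM (24370 to 24700) at 6 in IgG. In SPP1-nAb it rose from 3717 CPM (3696 to 3737) at 0 to 12847 CPM at 4 and 20501 CPM (20298 to 20705) at 6. Cells with 3 rule genes, just outside the threshold, stood at 11805 and 10177 CPM. The rise had no step at the threshold, and the IgG level was above the SPP1-nAb level at each number of rule genes. Depth was not matched there, and the SPP1-nAb cells had more UMIs by the median at each number.

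**Figure D3:**
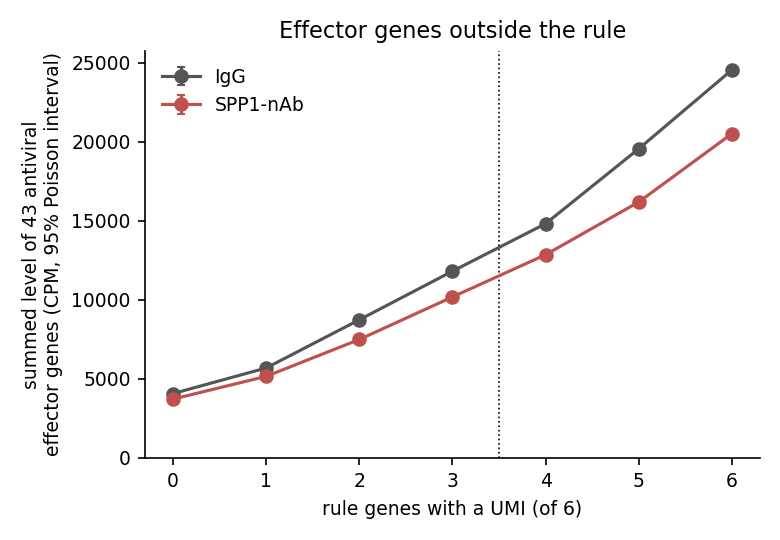
Summed level of the 43 effector genes outside the rule in CPM (y axis) by how many of the 6 rule genes had a UMI (x axis) in cells past every other part of the rule; lines are the 2 libraries, error bars 95% Poisson intervals, and the dotted line is the threshold. Both lines rise from 0 to 6 rule genes, and at 6 they reach 24535 CPM with IgG and 20501 CPM with SPP1-nAb.

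Members were set against comparison monocytes, cells that passed every other part of the rule, had 0 or 1 rule genes and had Ly6c2 and Ccr2 UMIs, 590 in IgG and 1237 in SPP1-nAb. As these were chosen for few rule genes, part of any difference in interferon-stimulated genes is fixed by the choice. Of 8073 genes measured, 248 (3.07%) were at least 2-fold higher in members in both libraries and 16 (0.198%) at least 2-fold lower. A gene was measured when members and comparison monocytes together had 100 UMIs in each library, so that a gene could pass through the members alone. Of the 43 effectors, as a description, 39 were at least 2-fold higher in both and 0 lower, with median log2 ratios of 2.41 in IgG and 2.46 in SPP1-nAb, against -0.10 and -0.06 over all genes measured. With 100 UMIs required in the comparison monocytes alone, an alternative added after the data had been seen, 4062 genes were measured and 74 (1.82%) were at least 2-fold higher and 11 (0.271%) at least 2-fold lower in both libraries, with 17 of 21 effectors among the higher ones and medians over those 21 of 2.14 in IgG and 2.24 in SPP1-nAb. Summed, the effectors stood at 19325 CPM in IgG members and 6554 CPM in comparison monocytes, and at 15428 and 5527 CPM with SPP1-nAb, log2 ratios of 1.56 (1.54 to 1.58) and 1.48 (1.465 to 1.497). The members' levels were higher in each library.

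Individual effectors differed in how sharply they marked the members. Ifit1, an RNA-binding sensor of uncapped transcripts, stood at 171 CPM in IgG members against 4.33 CPM in comparison monocytes and at 133 against 2.63 CPM with SPP1-nAb. Cmpk2, a mitochondrial nucleotide kinase encoded next to Rsad2, stood at 153 against 3.25 CPM and 128 against 4.71 CPM. Ifitm3, which blocks entry of enveloped viruses, stood at 4555 against 2069 CPM and at 3370 against 1642 CPM, and Bst2 at 1212 against 275 CPM and 932 against 254 CPM. Ifit1 was thus near 0 in the comparison monocytes, which were chosen for few rule genes, while Ifitm3 was present in both kinds of cell. In cells with 2 or 3 rule genes Ifit1 stood at 28.7 and 24.4 CPM. The 4 effectors that did not pass 2-fold in both libraries were Ifitm2, Ifitm6, Ifi27l2a and Samhd1, with Ifitm2 at 958 against 944 CPM with IgG and Ifitm6 at 88.5 against 140 CPM. Ifit1 and Ifit1bl1, and the Oas1 genes, are near-copies whose counts may be split.

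**Figure D4:**
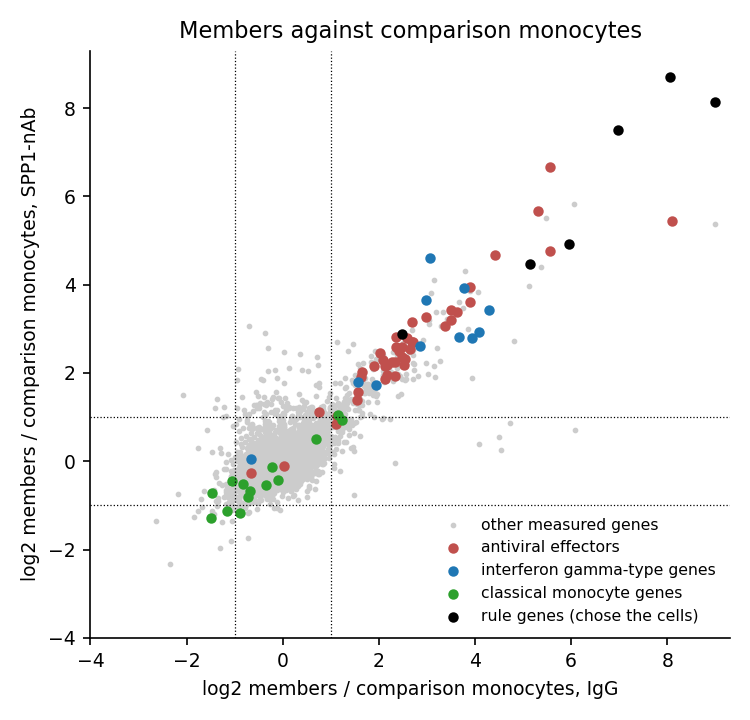
Each measured gene's log2 ratio of CPM in members over comparison monocytes in IgG (x axis) and SPP1-nAb (y axis), with 4 gene lists coloured and dotted lines at 2-fold; the 6 rule genes chose the cells, and genes with 0 UMIs in a comparison are drawn at the edge, at 9. Most effectors and interferon gamma-type genes lie past 2-fold in both libraries, and most classical monocyte genes lie near or below 0, with Plac8 past 2-fold.

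The 10 genes that separated members most in both libraries, rule genes apart, were Tnfsf10, Ifit3b, Lipg, Ifit1bl1, Ifi208, Ifit1, Cmpk2, Ifi44, Tgtp2 and Olfr56. None of them reached 100 UMIs in the comparison monocytes of either library, so all 10 were measured only through the members and their ranking is a description. Tnfsf10 encodes TRAIL, a ligand that triggers apoptosis, and had 271 UMIs in IgG members against 1 in comparison monocytes, and 236 against 3 in SPP1-nAb. Its log2 ratios were 6.06 (3.57 to 11.4) and 5.82 (4.26 to 8.11). Lipg, endothelial lipase, stood at 64.1 against 1.44 CPM with IgG and at 18.9 against 0.416 CPM with SPP1-nAb. Ifi208, an interferon-inducible gene of the Ifi200 cluster, was at 0 UMIs in the IgG comparison monocytes and at 51.5 CPM in IgG members, at least 47.5-fold higher when 3 counts in that comparison are taken as the floor. Ifi44 and Tgtp2 are interferon-inducible proteins, Tgtp2 a GTPase, and all 10 were higher in members in both libraries by the rule that named them.

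The 10 genes furthest the other way were Serpinb2, Rnase2a, F5, Hp, Fgf13, Mcemp1, Zfyve9, Uck2, Gsr and Fn1. Hp, haptoglobin of classical monocytes, stood at 56.3 CPM in IgG members against 157 CPM in comparison monocytes and at 47.4 against 116 CPM with SPP1-nAb. Fn1, fibronectin, stood at 337 against 753 CPM and at 394 against 860 CPM. Serpinb2, an inhibitor of urokinase, stood at 8.34 against 42.2 CPM and at 4.97 against 24.9 CPM. These genes were lower in members and not absent. The number of genes at least 2-fold lower changed with the cells kept, and was 53 when members with 2 or more markers of other cells were left out and 33 without the 5% of members with the most UMIs, against 16 for all members.

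Sensors and signal transducers came next. Of 9 nucleic acid sensors measured against comparison monocytes, 7 were at least 2-fold higher in members in both libraries, among them Ifi204, Zbp1, Ifih1 (MDA5) and Ddx58 (RIG-I), beside 3.07% of all genes measured. With 100 UMIs required in the comparison monocytes alone 3 of 5 were, beside 1.82%. Ifi204, a DNA-binding protein of macrophages, stood at 1309 against 290 CPM with IgG and at 1042 against 243 CPM with SPP1-nAb. Of 15 receptor and signalling genes, 3 were at least 2-fold higher by the first minimum, Stat2 and Irf7 among them, beside the same 3.07%. Irf7 stood at 667 against 68.2 CPM with IgG and at 458 against 54.7 CPM with SPP1-nAb. Ifnar1 stood at 118 against 104 CPM and at 98.4 against 105 CPM, and Ifnar2 at 297 against 286 CPM and at 284 against 274 CPM, log2 ratios of 0.05 (-0.06 to 0.17) and 0.05 (-0.03 to 0.14). Members thus differed in Stat2 and Irf7, and the interval of the Ifnar2 ratio held 0 in both libraries.

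Of 6 genes of ISGylation and feedback, 4 were at least 2-fold higher in both libraries, beside 3.07% of all genes measured. These were Uba7 and Ube2l6, the enzymes that activate and carry Isg15, Herc6, its ligase in mice, and Usp18, which removes it and damps receptor signalling, and all 4 were short of 100 UMIs in the comparison monocytes of at least 1 library. Usp18 stood at 124 against 8.30 CPM with IgG and at 102 against 7.07 CPM with SPP1-nAb. Socs3, an inhibitor of cytokine receptors, stood at 173 against 198 CPM and at 168 against 167 CPM.

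Of 11 genes classed as interferon gamma-type and measured, 10 were at least 2-fold higher in members in both libraries, beside 3.07% of all genes measured. All 11 were short of 100 UMIs in the comparison monocytes of at least 1 library, so the count is a description. They included Irgm1 and Iigp1, immunity-related GTPases that attack vacuoles of intracellular microbes, and Gbp5. Irgm1 stood at 175 against 24.2 CPM with IgG and at 161 against 26.3 CPM with SPP1-nAb. Ciita, the master regulator of MHC class II, did not follow, at 18.7 against 29.6 CPM and at 23.8 against 22.9 CPM. Most of these GTPases also respond to type I interferon, so the list does not separate the 2 interferon types.

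Ligands themselves were scarce. Interferon β (Ifnb1) had 255 UMIs in 129 IgG barcodes and 451 UMIs in 184 SPP1-nAb barcodes, of which 40 and 71 UMIs lay in members. In IgG 10 members held 77.5% of the members' Ifnb1 UMIs, and in SPP1-nAb 10 held 64.8%. Interferon γ (Ifng) had 30 and 45 UMIs in the libraries and 0 in members of either, which does not show that it was absent from them. The 12 Ifna genes of the list had 0 UMIs in either library and Ifnab had 3 in each.

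Chemokines were abundant in members and comparison monocytes alike. Of 16 ligands, 5 were at least 2-fold higher than in comparison monocytes in both libraries, Cxcl9, Cxcl10, Ccl5, Ccl8 and Ccl12, and Ccl24, an eosinophil attractant, was lower, beside 3.07% and 0.198% of all genes measured. Cxcl9 and Ccl5 were short of 100 UMIs in the IgG comparison monocytes. Cxcl10, which attracts activated T cells through Cxcr3, stood at 880 against 97.1 CPM with IgG and at 703 against 67.3 CPM with SPP1-nAb. Ccl12, a ligand of Ccr2, stood at 1933 against 346 CPM and at 1213 against 335 CPM. Cxcl2, a neutrophil attractant, hardly differed, at 7855 against 7280 CPM and 6915 against 7591 CPM. Of 11 inflammatory genes measured, Il18, Acod1 and Tnfsf10, all short of 100 UMIs in the IgG comparison monocytes, were at least 2-fold higher, beside the same 3.07%, while Il1b stood at 1581 against 2386 CPM and at 1252 against 2269 CPM.

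Genes of antigen presentation were listed by class. Of 18 MHC class I genes, 7 were at least 2-fold higher in members in both libraries, H2-Q6, H2-T22, H2-T23, Tap1, Psmb9, Psmb10 and Nlrc5, the peptide transporter, immunoproteasome subunits and transactivator of the class I pathway among them, and H2-T23, Psmb9 and Psmb10 were among the 10 measured in the comparison monocytes alone. Tap1 stood at 78.7 against 27.8 CPM with IgG and at 84.1 against 24.5 CPM with SPP1-nAb. Of 6 MHC class II genes, 0 passed 2-fold, beside 3.07% of all genes measured, and the difference between the classes was not tested. H2-Ab1 stood at 1375 against 1663 CPM with IgG and at 1819 against 1749 CPM with SPP1-nAb.

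Lineage genes were mixed, and part of their difference is fixed by the choice of comparison monocytes, which had Ly6c2 and Ccr2 UMIs while members need not. Of 14 classical monocyte genes, Plac8 was at least 2-fold higher in members in both libraries and Hp and Fn1 lower, beside 3.07% and 0.198% of all genes measured. Of 16 macrophage genes, Fcgr1 (CD64), Folr2 and Lyve1 were higher, Lyve1 being short of 100 UMIs in the comparison monocytes of either library, with Fcgr1 at 597 against 156 CPM with IgG and 468 against 168 CPM with SPP1-nAb. Fcgr1 is itself raised by interferon, and Folr2 and Lyve1 mark resident macrophages. In members that also had Ly6c2 and Ccr2 UMIs, 1096 in IgG and 667 in SPP1-nAb, a comparison added after the data had been seen, 3.15% of 6890 genes were at least 2-fold higher in both libraries and 0.0726% at least 2-fold lower. There Plac8 and Fcgr1 were still at least 2-fold higher in both libraries and Fn1 lower, while Hp, Folr2 and Lyve1 no longer passed in both. Hp then stood at 78.5 against 157 CPM with IgG and at 79.5 against 116 CPM with SPP1-nAb. Of 7 nonclassical genes measured, 0 passed 2-fold in either direction in both libraries.

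Member cells were then compared between the libraries. Of 9119 genes measured, 306 (3.36%) were at least 1.5-fold higher in SPP1-nAb members and 250 (2.74%) at least 1.5-fold lower. These counts were 128 and 105 at 2000 UMIs per cell, and 498 and 452 with a minimum of 50 UMIs per gene. The balance of higher over lower turned with the cells kept, with 216 higher and 277 lower without the 5% of members with the most UMIs. The median log2 ratio over all 9119 genes was 0.02. Of the 43 effectors, 0 were at least 1.5-fold higher and 7 lower, and 36 had a ratio below 0 by any amount, against 46.3% of all genes measured. The 7 were Ifit1bl1, Ifit3b, Oas1g, Isg20, Phf11b, Phf11d and Slfn1, and the median of the list was -0.25. Isg20, an exonuclease for RNA, stood at 173 CPM with IgG and 92.2 CPM with SPP1-nAb and Phf11b at 398 and 244 CPM.

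The summed effectors were lower by a log2 ratio of -0.32 (-0.33 to -0.32), from 19325 CPM (19244 to 19407) to 15428 CPM (15351 to 15505). Since SPP1-nAb members had fewer rule genes, cells with the same number were also compared, an analysis added after the data had been seen. The log2 ratio was -0.21 (-0.22 to -0.19) in cells with exactly 4 rule genes, -0.27 (-0.29 to -0.26) with 5 and -0.26 (-0.28 to -0.24) with 6. Depth was not matched in these cells. Their median UMIs in IgG and SPP1-nAb were 5016 and 5617 with 4 rule genes, 4666 and 5760 with 5 and 4883.5 and 5899 with 6. As detection depends on depth, an equal number of rule genes need not mean an equal level of them. At 2000 UMIs per cell a member had a median of 38 effector UMIs in IgG (quartiles 27 and 53) and 31 in SPP1-nAb (22 and 41). The distributions overlapped widely, and the SPP1-nAb one lay lower.

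Other myeloid cells were also lower in SPP1-nAb, and mesenchymal and muscle barcodes were not. The effectors were lower in SPP1-nAb comparison monocytes by -0.25 (-0.27 to -0.22) and in all non-members past the other parts by -0.18 (-0.19 to -0.17). In barcodes with 3 or more neutrophil genes the log2 ratio was -0.44 (-0.49 to -0.39), from 9018 to 6641 CPM. In mesenchymal barcodes it was 0.08 (0.06 to 0.10), from 5022 to 5314 CPM, in barcodes with muscle genes 0.18 (0.09 to 0.28), in those with Schwann cell genes -0.02 (-0.16 to 0.11) and in endothelial barcodes -0.11 (-0.17 to -0.05). The direction of the members was thus shared with the other myeloid and the endothelial barcodes. Whether the ratios differ between cell types beyond variation between mice was not tested.

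Upstream genes were mixed in direction. Ifnb1, the ligand with the most UMIs, rose from 3.55 to 7.06 CPM in members, a log2 ratio of 0.99 (0.41 to 1.59), on the 40 and 71 UMIs given above. The summed sensors had a log2 ratio of -0.25 (-0.28 to -0.23) and the receptor and signalling list one of -0.13 (-0.15 to -0.10). Of these genes 0 of 11 and 0 of 15 passed 1.5-fold, beside 3.36% of all genes higher and 2.74% lower, and 8 of 11 and 9 of 15 had a ratio below 0, beside 46.3%. Irf7 stood at 667 and 458 CPM, a log2 ratio of -0.54 (-0.60 to -0.49), and Stat2 at 208 and 173 CPM. Ly6c2, of the 4 phagocyte genes of the rule the one past 1.5-fold, stood at 1180 CPM (1160 to 1200) with IgG and 496 CPM (483 to 510) with SPP1-nAb, a log2 ratio of -1.25 (-1.30 to -1.20). In comparison monocytes, which all had a Ly6c2 UMI by choice, it was -0.35 (-0.44 to -0.27).

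Of 12 interferon gamma-type genes measured, 2, Cxcl9 and Serpina3g, were at least 1.5-fold higher in SPP1-nAb members and 0 lower, and 6 of 12 had a ratio below 0, beside 3.36%, 2.74% and 46.3% of all genes measured. The summed level of the list was 557 and 690 CPM, a log2 ratio of 0.31 (0.26 to 0.36). Without Cxcl9, an alternative added after the data had been seen, it was 538 and 547 CPM, a log2 ratio of 0.02 (-0.03 to 0.08), so that the difference rested on that gene. Cxcl9, a T cell attractant, stood at 19.8 CPM with IgG and 143 CPM with SPP1-nAb, with 223 and 1440 UMIs in 44 and 90 cells. Within each library 10 cells held 69.1% of its IgG and 54.2% of its SPP1-nAb UMIs. The Cxcl9 difference thus lay in few cells, while Irgm1 stood at 175 and 161 CPM and Iigp1 at 80.2 CPM in both.

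Of 6 MHC class II genes, 0 passed 1.5-fold between the libraries, beside 3.36% of all genes measured higher and 2.74% lower, and 0 of 6 had a ratio below 0, beside 46.3%. They summed to 10695 CPM with IgG and 14027 CPM with SPP1-nAb in members, a log2 ratio of 0.39 (0.38 to 0.40). H2-Aa stood at 2068 and 2911 CPM and Cd74, the invariant chain, at 5435 and 6760 CPM. In comparison monocytes the list had a log2 ratio of 0.07 (0.05 to 0.09), in all cells with 0 or 1 rule genes one of -0.24 (-0.24 to -0.23) and in all cells past the other parts of the rule one of -0.03 (-0.03 to -0.03). The MHC class I ratio in members was -0.08 (-0.09 to -0.07), with 0 of 18 past 1.5-fold, beside the same shares, and 10 of 18 below 0.

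**Figure D5:**
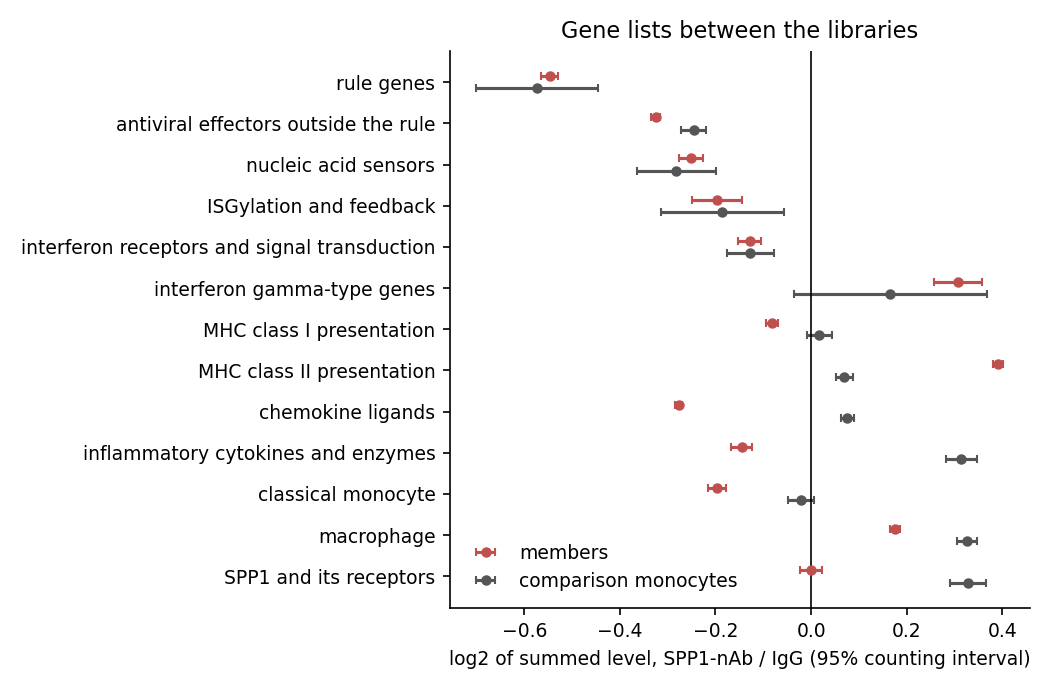
Log2 ratio of the summed CPM of 13 gene lists in SPP1-nAb over IgG (x axis) in members and in comparison monocytes; points are ratios, bars 95% counting intervals, and the rule genes chose the cells. Effectors, sensors and ISGylation genes lie below 0 in both kinds of cell, and MHC class II genes lie furthest above 0 in members. Chemokines and inflammatory genes both lie below 0 in members and above 0 in comparison monocytes.

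Of 16 chemokine ligands, 3 were at least 1.5-fold lower in SPP1-nAb members and 2, Cxcl9 and Ccl24, at least 1.5-fold higher. Over all genes measured 2.74% were lower and 3.36% higher by that much. Of the 16, 9 had a ratio below 0, beside 46.3% of all genes measured. Their summed level was 26745 CPM with IgG and 22075 CPM with SPP1-nAb, a log2 ratio of -0.28 (-0.28 to -0.27), against 0.08 (0.06 to 0.09) in comparison monocytes. Ccl2, the main ligand of Ccr2, fell from 4073 to 2327 CPM, Ccl12 from 1933 to 1213 CPM and Cxcl3 from 244 to 152 CPM. Ccl24 rose from 179 to 510 CPM in members and from 371 to 1104 CPM in comparison monocytes. Cxcl10 stood at 880 and 703 CPM. Among 12 inflammatory genes, Il27 alone passed 1.5-fold, from 7.19 to 4.38 CPM, on 81 and 44 UMIs, beside 2.74% of all genes lower. Of these 12, 10 had a ratio below 0, beside 46.3% of all genes measured. The summed inflammatory list had a log2 ratio of -0.15 (-0.17 to -0.12) in members and 0.31 (0.28 to 0.35) in comparison monocytes.

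Of 16 macrophage genes, 0 were at least 1.5-fold higher in SPP1-nAb members and 1, Lyve1, lower, and 6 of 16 had a ratio below 0, beside 3.36%, 2.74% and 46.3% of all genes measured. Of 14 classical monocyte genes, 3 were at least 1.5-fold lower and 2 higher, and 9 of 14 had a ratio below 0, beside the same shares. The summed macrophage list stood at 14406 and 16275 CPM, a log2 ratio of 0.18 (0.17 to 0.19), with Apoe, a lipid carrier, at 4874 and 6212 CPM and C1qa at 1263 and 1513 CPM. The summed classical monocyte list had a log2 ratio of -0.20 (-0.22 to -0.18), and Plac8 at 1405 and 918 CPM and Cd177 at 12.2 and 7.16 CPM were past 1.5-fold lower. Chil3, a chitinase-like protein of monocytes, went the other way from 201 to 331 CPM, and so did Mgst1 from 44.1 to 67.0 CPM. Neither list was uniform in direction. Lyve1 stood at 25.8 and 14.5 CPM. The summed nonclassical list stood at 908 and 860 CPM.

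Spp1, whose protein the antibody binds, was present in 43.6% of IgG and 43.3% of SPP1-nAb members, or 34.1% (32.1 to 36.2) and 32.0% (29.7 to 34.4) at 2000 UMIs, against 5.23% and 6.14% of mesenchymal barcodes at that depth and 9.15% and 14.4% of them without thinning. Its level was 1259 CPM with IgG and 1107 CPM with SPP1-nAb, a log2 ratio of -0.19 (-0.22 to -0.15). In comparison monocytes it was 839 and 1427 CPM, a log2 ratio of 0.77 (0.70 to 0.83). The 2 kinds of phagocyte thus differed in opposite directions between the libraries. Within the members, the Ly6c2 only, Ly6c2 and C1q, and C1q only groups had 1102, 1565 and 780 CPM with IgG and 914, 1290 and 923 CPM with SPP1-nAb. The C1q only group was the one with a higher level in SPP1-nAb. The 10 members richest in Spp1 held 14.0% of its UMIs in IgG and 16.4% in SPP1-nAb. The log2 ratio was -0.06 in members with 5 or more rule genes.

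Of 8 measured genes of SPP1 and its receptors, 0 passed 1.5-fold in members, beside 3.36% of all genes higher and 2.74% lower. Of the 8, 1 had a ratio below 0, Spp1 itself, beside 46.3% of all genes measured. Cd44 stood at 889 and 973 CPM and Itgb1 at 291 and 298 CPM.

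Many of the largest single-gene differences between the libraries lay in few cells. The 8 genes with the largest rise in SPP1-nAb members were Rnase2a, Cxcl9, Lox, Slc39a12, S100a9, Cilp, Saa3 and Bgn. Of these, Cxcl9 and Bgn alone reached 100 UMIs in IgG members, so the rest passed the minimum through SPP1-nAb, and S100a9 is a gene that the rule limits. Bgn, biglycan of matrix-making cells, stood at 21.6 and 82.8 CPM, and 57.7% of its SPP1-nAb UMIs lay in 10 cells. Cilp, a cartilage matrix protein, and Lox, lysyl oxidase, had 75.8% and 71.6% of their SPP1-nAb UMIs in 10 cells. Rnase2a, an eosinophil-type ribonuclease, rose from 3.73 to 27.9 CPM with 37.9% in 10 cells, and in comparison monocytes from 23.1 to 70.9 CPM. Slc39a12, a zinc transporter, rose from 2.48 to 13.9 CPM over 24 and 84 cells.

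The 8 genes with the largest fall were Chodl, Ptn, Cadm2, Lipg, Reln, Gpc3, BE692007 and Cavin2. Of these, Lipg alone reached 100 UMIs in SPP1-nAb members. It fell from 64.1 CPM in 301 IgG cells to 18.9 CPM in 83 with SPP1-nAb, at a log2 ratio of -1.76 (-1.999 to -1.53), with 15.9% and 41.1% of its UMIs in 10 cells. BE692007 fell from 19.9 CPM in 202 cells to 6.96 CPM in 66 cells, with 9.82% and 20.0% in 10 cells. Lipg had 722 and 190 UMIs and BE692007 224 and 70. Fewer UMIs lie in fewer cells by themselves, so a difference in spread between the libraries was not tested. Ptn, Cadm2, Reln and Gpc3, known from stromal and neural cells, had 86.3%, 84.9%, 92.2% and 78.9% of their IgG UMIs in 10 cells.

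Markers of other cells were present in a few members, to a like degree in both libraries except for neutrophil and erythroid genes. From a set of 16 lymphocyte, mesenchymal, endothelial, muscle and Schwann cell markers, 2 or more were detected in 4.54% of IgG and 4.58% of SPP1-nAb members. The 5 mesenchymal genes summed to 600 and 631 CPM, with Dcn highest at 279 and 268 CPM, against 29439 and 26668 CPM in mesenchymal barcodes, and against 617 and 253 CPM in comparison monocytes. Of the 5, Pdgfra and Lum were at least 1.5-fold higher in SPP1-nAb members, beside 3.36% of all genes measured. The 8 lymphocyte genes summed to 1.42 and 1.29 CPM, with 2 and 4 of the 8 at 0 UMIs. The 4 endothelial genes summed to 60.9 and 51.2 CPM, with Flt1 highest at 28.4 and 25.9 CPM. Of the 3 endothelial genes measured, Kdr was at least 1.5-fold lower in SPP1-nAb, beside 2.74% of all genes measured. The 5 muscle genes summed to 27.1 and 32.5 CPM, with Acta1 highest at 13.5 and 20.1 CPM, and the 4 Schwann cell genes to 11.6 and 9.25 CPM. The part of these cells in the genes above was not tested beyond leaving them out, which gave an effector ratio of -0.32 and a Spp1 ratio of -0.20 between the libraries.

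Of the 4 neutrophil genes of the rule, 1 was detected in 2.95% of IgG and 9.86% of SPP1-nAb members and 2 were detected in 0.375% and 1.38%. The 10 neutrophil genes summed to 99.1 and 138 CPM, with Csf3r highest at 56.6 and 61.8 CPM. Of these 10, 4 were measured between the libraries. Among them S100a8 and S100a9 were at least 1.5-fold higher in SPP1-nAb, beside 3.36% of all genes measured. Barcodes with 3 or more neutrophil genes, excluded by the rule, numbered 307 in IgG and 791 in SPP1-nAb. Members without any neutrophil gene had an effector log2 ratio of -0.33 between the libraries, as large as all members. The 10 dendritic cell genes summed to 1298 and 1045 CPM, nearly all of it Bst2, which is also on the effector list, and 3 of them were at 0 by the rule. Of the 3 dendritic cell genes measured, Ccr7 was the one at least 1.5-fold higher in SPP1-nAb, beside the same 3.36%.

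The 4 erythroid genes summed to 482 CPM with IgG and 150 CPM with SPP1-nAb, with Hbb-bs highest at 246 and 84.4 CPM. In comparison monocytes they summed to 20.2 and 108 CPM. In members 10 cells held 96.1% of the Hbb-bs UMIs in IgG and 91.7% in SPP1-nAb, and all 4 genes were at least 1.5-fold lower in SPP1-nAb members, beside 2.74% of all genes measured. Of 10 cell cycle genes, 3 reached the minimum of 100 UMIs over both libraries, which favours genes high in either, and these 3, Mki67 at 12.95 and 27.8 CPM, Top2a and Ccnb2, were at least 1.5-fold higher in SPP1-nAb, beside 3.36% of all genes. The other 7 were not measured by that minimum, and 2 or more of the 10 were detected in 1.73% and 3.39% of members. At 2000 UMIs those shares were 0.525% (0.263 to 0.938) and 1.08% (0.629 to 1.72), with intervals that overlapped.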

How the data were processed

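Single-cell RNA was measured in 2 libraries. The authors deposited counts of UMIs per gene and barcode after Cell Ranger's barcode filtering, without normalization. The file headers name version 9.0.1 and the submitters' processing notes version 8.0.0 with GRCm39, and the methods also name GRCm38. The authors' later removal of free RNA and doublets and their integration are not in these counts.

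The members, the 25 gene lists and the comparisons were chosen with earlier results of these data known. Counts were summed over cells and divided by their total (CPM). Genes needed 100 UMIs, and between libraries 20 cells. Named genes were the rule and phagocyte genes, per list up to 4 genes with the most UMIs and those past 2-fold, the 8 largest ratios per direction between libraries and the 10 largest against comparison monocytes. Mitochondrial, ribosomal, hemoglobin, immunoglobulin, Gfp and sex-linked genes were left out of these rankings. Other genes, such as those in a count of 5 or fewer, were named after their values were seen. Some genes are not reported here. No doublet caller was run, and cells with markers of other cells or the most UMIs were left out as alternatives instead. The calculations were tested on simulated data. Promoters were read from GRCm39 with GENCODE M39, which held 31674 of 32287 identifiers. Python 3.11.15, numpy 2.4.6, scipy 1.17.1, pandas 2.3.3 and matplotlib 3.10.9 were used.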

Additional observations from a re-analysis of the deposited data

Results flagged for a closer look

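Of 133 named genes, 14 had log2 ratios of SPP1-nAb over IgG with opposite signs in members and comparison monocytes, each with an interval on its own side of 0. The named genes were picked by list, level and ratio, and the share of all genes measured with opposite signs is not given here. The difference between the 2 kinds of cell was not tested, as each condition is 1 library. Spp1 was -0.19 in members and 0.77 in comparison monocytes, and Il1rn, the interleukin 1 receptor antagonist, -0.19 and 0.43. Among chemokines, Ccl6 was -0.12 and 0.21 and Cxcl2 -0.18 and 0.06. The viral RNA sensor Ifih1 was 0.082 and -0.27, Ifitm2 was -0.054 and 0.07, Lyz2 0.23 and -0.12, and Gsr, glutathione reductase, 0.23 and -0.40. The matrix genes Col3a1 and Lum were 0.17 and 0.70 in members and -0.71 and -1.28 in comparison monocytes. The hemoglobin genes Hba-a1, Hba-a2, Hbb-bs and Hbb-bt were -1.99, -1.75, -1.54 and -1.46 in members and 2.28, 3.64, 2.41 and 2.22 in comparison monocytes, with over 90% of the members' Hbb-bs UMIs in 10 cells of each library.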

How the results depend on the processing

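With 1 library per condition, the intervals cover counting error only and no library could be left out. No paired analysis was possible because each group holds 1 library. No ratio or share difference below changed sign in the alternatives run, but the balance of genes higher over genes lower between the libraries did. The share difference of -2.70 percentage points was -1.98 with 3 or more rule genes, -3.34 at 2000 UMIs, -7.68 among cells past every other part of the rule and -1.11 in members without a C1q UMI, the last pair added after the data were seen, as were the mean over cells, the exact numbers of rule genes and the other values without C1q. The effector log2 ratio between libraries (-0.32) was -0.37 with 3 or more rule genes, -0.31 with 5 or more, -0.25 at 2000 UMIs, -0.31 with Ly6c2 required, -0.34 with estimated free RNA subtracted, -0.31 as a mean over cells, -0.21, -0.27 and -0.26 with exactly 4, 5 and 6 rule genes, and -0.25 without C1q. Against comparison monocytes the effector ratios (1.56 in IgG and 1.48 in SPP1-nAb) were 1.37 and 1.25 with 3 or more rule genes, 1.75 and 1.68 with 5 or more, 1.45 and 1.42 at 2000 UMIs, 1.67 and 1.60 with Ly6c2 required, 1.67 and 1.62 in members with Ly6c2 and Ccr2 UMIs, 1.59 and 1.52 without markers of other cells, 1.62 and 1.55 without the deepest 5%, 1.64 and 1.58 with free RNA subtracted, 1.33 and 1.21 against nonclassical monocytes, 2.04 and 1.83 against all cells with 0 or 1 rule genes and, in SPP1-nAb, 1.44 without neutrophil genes and 1.52 without C1q. The Spp1 ratio (-0.19) was -0.13 and -0.062 with 3 or more and 5 or more rule genes, -0.15 at 2000 UMIs, -0.25 with Ly6c2 required and -0.25 as a mean over cells. Genes at least 1.5-fold higher and lower in SPP1-nAb (306 and 250) numbered 128 and 105 at 2000 UMIs, 498 and 452 with a minimum of 50 UMIs and 163 and 129 with 200. Lower genes outnumbered higher ones with 3 or more rule genes (277 higher and 302 lower), without markers of other cells (216 and 238) and without the deepest 5% (216 and 277). The interferon gamma-type ratio (0.31) was 0.02 without Cxcl9. This setting, the minimum on comparison monocytes alone and the members with Ly6c2 and Ccr2 UMIs were also added after the data were seen. Genes at least 2-fold higher in members (248) numbered 163 at 2000 UMIs and 74 with the minimum on comparison monocytes alone. Those lower (16) numbered 5 in members with Ly6c2 and Ccr2 UMIs, 8 with Ly6c2 required, 53 without markers of other cells, 33 without the deepest cells, 34 with free RNA subtracted and 54 against all cells with 0 or 1 rule genes. The causes were not tested.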
